A study of Mus musculus with 4 samples.

Results

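The border ring is the single layer of spots that touches a macrophage niche in mouse hearts profiled with Visium, a spatial assay that counts transcripts over a hexagonal grid of spots laid under a tissue section. Niche spots were those with 5000 or more UMIs (unique molecular identifiers, each standing for 1 captured molecule) of which Arg1 and Mmp12 together made up 0.4% or more. Ring spots were the other spots with 5000 or more UMIs that had at least 1 niche spot among their 6 grid neighbours. The ring came to 575 of 10744 spots under tissue, beside 968 niche spots and 7846 far spots, which lay 4 or more grid steps from any niche spot. Because Arg1 and Mmp12 chose the spots, both genes are described here and not tested.

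The hearts came from wild type FVB/NJ mice that had all been immunized with a MyHCα peptide, a fragment of the cardiac myosin heavy chain alpha. Mice of the antibody group received anti-PD-1, anti-CTLA-4 and an IL-17A neutralizing antibody, and mice of the ICI-alone group received anti-PD-1 and anti-CTLA-4, the dual immune checkpoint inhibitors (ICIs), without it. Each group had 2 sections, numbered by batch, and the labels record myocarditis in the ICI-alone group and its mitigation with the antibody. Whether the 4 sections are from different mice is not stated, and the p-values reflect only how these sections vary. Age, sex and time of sampling are not given in the sources used here. No untreated heart was analysed here. Per-section values run throughout in the order antibody replicate 1, antibody replicate 2, ICI-alone replicate 1 and ICI-alone replicate 2.

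Arg1 encodes arginase 1, which breaks down arginine, and Mmp12 encodes macrophage elastase. Both are known from macrophages that clear and remodel damaged tissue. Inflammatory heart lesions are known to hold macrophages and T cells side by side: T cells release interferon gamma, which induces the chemokines CXCL9 and CXCL10 that draw in more T cells, while IL-17A acts on stromal cells to raise chemokines for neutrophils. Cardiomyocytes beside a lesion are known to lose transcripts of contraction and of oxidative metabolism and to gain stress transcripts.

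The antibody sections held 80 and 60 ring spots and the ICI-alone sections 112 and 323. As a share of spots with 5000 or more UMIs this was 3.20% (95% Wilson interval 2.58 to 3.97) and 2.35% (1.83 to 3.02) with the antibody, against 4.49% (3.75 to 5.38) and 10.6% (9.55 to 11.7) with ICIs alone. The intervals cover counting error only, and an exact permutation test of 2 sections against 2 cannot pass 0.05. Niche spots numbered 239 and 48 with the antibody and 213 and 468 with ICIs alone, in 3, 6, 5 and 18 separate patches. The ring therefore held between 0.335 and 1.25 spots per niche spot. The share of UMIs on Arg1 and Mmp12 had a median of 0.220%, 0.110%, 0.180% and 0.179% in the ring, against 1.30%, 0.811%, 1.03% and 0.888% in the niche and 0% in the far spots of all 4 sections. At the threshold, the highest ring spots lay at 0.383%, 0.398%, 0.394% and 0.395%, and the lowest niche spots at 0.403%, 0.403%, 0.405% and 0.403%. A further 9 spots beside the niche had too few UMIs to be members.

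**Figure D1:**
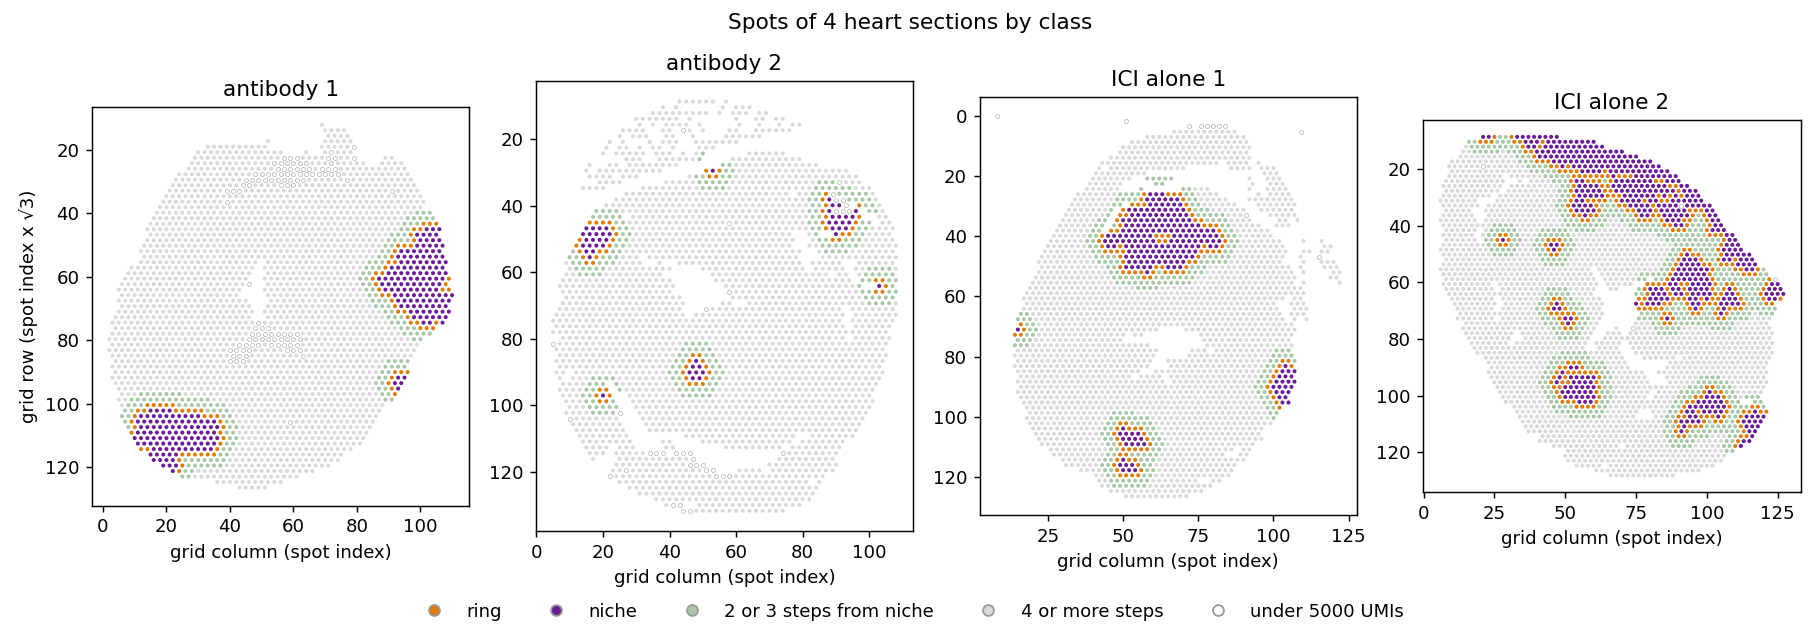
Spots of the 4 sections on the array grid (x axis grid column, y axis grid row scaled to true proportions), coloured by class. Ring spots (orange) outline the 3, 6, 5 and 18 niche patches (purple), and ICI-alone replicate 2 holds 323 of the 575 ring spots.

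Ring spots were deeper than far spots in every section, with a median of 22932, 16437, 41576 and 28030 UMIs, against 19442, 14773, 38057 and 27429 in the niche and 18328, 12156, 25870 and 17046 in far spots. Counts were therefore also compared after thinning every spot to 5000 UMIs. Spots were summed by class within each section, since spots of 1 section are not replicates, and levels are given as CPM (UMIs scaled to a common library size with the TMM method). Fold changes are ring over the named class on the log2 scale with their standard error (SE), from a quasi-likelihood test over 12 sums with the section as a block. Both comparisons of the ring use the same 4 ring sums. Among 13370 genes tested, 3700 (27.7%) were higher and 4096 (30.6%) lower in the ring than in far spots (58.3% in all). Against the niche, 1195 (8.94%) were higher and 1188 (8.89%) lower (17.8% in all). With library size as the only scaling, the median of all genes against far spots was 0.28 in place of -0.02 and the split became 5550 higher and 2777 lower. A spot covers several cells, so fewer cells of a type and less RNA per cell cannot be told apart.

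Contractile genes of cardiomyocytes were far lower in the ring than in far myocardium and higher than in the niche. The niche was cut on the UMI share of macrophage genes, so a higher share of cardiomyocyte genes outside it partly follows from the rule. Comparisons of cardiomyocyte genes with the niche, here and in the next paragraphs, are therefore descriptions. All 15 sarcomere genes tested passed in both comparisons, with a median log2 difference of -2.31 against far spots and 1.94 against the niche. Summed over the list, the ring held 13.3%, 23.9%, 18.3% and 20.8% of the far level. Myh6, the alpha myosin heavy chain whose peptide was used to immunize the mice, had 2648, 3442, 873 and 663 CPM in the ring, 434, 901, 227 and 135 CPM in the niche and 34282, 21324, 14279.9 and 9652 CPM in far spots. It thus lay between the niche and far levels in each section, and its ring level was higher in both antibody sections than in both ICI-alone sections. The fold change was -3.61 ± 0.30, adjusted p = 5.88e-06 against far spots and 2.18 ± 0.28, adjusted p = 0.000594 against the niche. Tnnt2, cardiac troponin T, had 3408, 4130.3, 4967 and 4503 CPM in the ring, 727, 1289, 1562 and 1171 CPM in the niche and 19063, 13870.4, 18328 and 15679 CPM in far spots. For Tnnt2 the ring differed by -2.0001 ± 0.23, adjusted p = 3.65e-05 from far spots and by 1.86 ± 0.23, adjusted p = 0.000410 from the niche. The classes did not overlap for this gene.

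Genes of calcium cycling, ion channels and mitochondrial metabolism followed the same order. Of the calcium and channel genes, 15 of 15 were lower than in far spots and 13 of 15 higher than in the niche. Pln, phospholamban, the brake on the sarcoplasmic calcium pump, had 1021, 1169, 890.2 and 609 CPM in the ring, 172, 252, 199.6 and 114 CPM in the niche and 10416, 5593, 7952 and 5185 CPM in far spots. Pln gave log2 fold changes of -2.99 ± 0.23, adjusted p = 3.72e-06 against far spots and 2.34 ± 0.22, adjusted p = 0.000133 against the niche. Kcnj11, a subunit of the ATP-sensitive potassium channel, had 17.2, 14.7, 16.0 and 13.7 CPM in the ring against 6.87, 7.10, 4.76 and 3.19 CPM in the niche and 295, 181, 153 and 126 CPM in far spots, a ring level close to the same in all 4 sections. For Kcnj11 the ring differed by -3.48 ± 0.15, adjusted p = 5.31e-07 from far spots and by 1.73 ± 0.19, adjusted p = 0.000221 from the niche. For Atp2a2, the calcium pump itself, the fold change was -2.21 ± 0.19, adjusted p = 6.04e-06 against far spots and 1.37 ± 0.18, adjusted p = 0.000642 against the niche. All 20 genes of fatty acid oxidation and all 18 of oxidative phosphorylation were lower than in far spots, with median log2 differences of -2.21 and -1.85, while 11 and 17 of them were higher than in the niche.

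Stress genes of the border zone did not follow as one group. Of 16 genes tested, 3 were higher and 5 lower than in far spots, and 11 were higher than in the niche. The list's median against far spots was -0.23 with TMM and 0.04 with library size alone, so its direction rests on the scaling. Ankrd1, a stretch-responsive ankyrin repeat gene, had 7753, 10108, 6856 and 3572 CPM in the ring, 2351, 5017, 3349 and 1385 CPM in the niche and 4975, 9289.8, 15681 and 10345 CPM in far spots. The ring exceeded far spots in both antibody sections and lay below them in both ICI-alone sections, and the comparison with far spots did not pass (-0.56 ± 0.36, adjusted p = 0.1997). Without antibody replicate 1 it did, as a lower level (-0.95, adjusted p = 0.0218). Acta1, the skeletal actin of the fetal heart programme, had 1553, 976, 1172 and 639 CPM in the ring against 748, 543, 496 and 234 CPM in the niche (1.13 ± 0.28, adjusted p = 0.0192). Against the niche, Ankrd1 had 1.30 ± 0.35, adjusted p = 0.0279; leaving out antibody replicate 2 gave adjusted p of 0.0715 for Ankrd1 and 0.0721 for Acta1, leaving out ICI-alone replicate 1 gave 0.102 for Ankrd1, and leaving out ICI-alone replicate 2 gave 0.0848 for Acta1.

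Nppa, the atrial natriuretic peptide, had 1254, 1284, 4801 and 4712 CPM in the ring, 394, 643, 2103 and 1171 CPM in the niche and 329.9, 7204, 3031 and 6773 CPM in far spots, and did not pass against far spots (-0.32 ± 0.61, adjusted p = 0.677). Far spots of antibody replicate 2 included 160 atrial-rich spots, with over 1% of UMIs on atrial genes other than Nppa, a rule added after the data were seen. The other far classes and all rings held 0 such spots. Without them the log2 difference was 0.61 and did not pass (adjusted p = 0.195). Under the planned rule, which counted Nppa itself among the atrial genes, it was 0.79 and passed (adjusted p = 0.0416). With limma on mean log values per spot it was 2.69 (adjusted p = 0.0039). Hspb1, a small heat shock protein, had 1516, 1902, 2331 and 2121 CPM in the ring, 904, 1533, 1527 and 1013 CPM in the niche and 699.5, 939, 2019.7 and 1424 CPM in far spots. It was the one member of the stress list above both classes, in all 4 sections. Hspb1 gave log2 fold changes of 0.71 ± 0.20, adjusted p = 0.0119 against far spots and 0.67 ± 0.20, adjusted p = 0.0441 against the niche. Against the niche it no longer passed without antibody replicate 2, ICI-alone replicate 1 or ICI-alone replicate 2 (adjusted p of 0.0539, 0.128 and 0.179).

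Genes of vessel cells and of the resident macrophages of healthy heart were also low in the ring. Of the endothelial genes, 12 of 14 were lower than in far spots and 2 were higher than in the niche. Aqp1, a water channel of microvessels, had 18.2, 13.8, 22.7 and 30.9 CPM in the ring against 158, 86.9, 145 and 117 CPM in far spots (-2.56 ± 0.19, adjusted p = 3.68e-06). Pecam1, found on all endothelium, differed far less, with 90.2, 109.8, 122 and 106 CPM in the ring against 139, 131, 138 and 127 CPM in far spots (-0.32 ± 0.11, adjusted p = 0.0241; 0.0884 without antibody replicate 1). Rgs5, a pericyte regulator of G protein signalling, had 34.0, 31.1, 33.1 and 48.2 CPM in the ring, 18.8, 10.7, 15.4 and 22.2 CPM in the niche and 302, 235, 145 and 138 CPM in far spots (-2.40 ± 0.25, adjusted p = 2.25e-05 against far, 1.07 ± 0.27, adjusted p = 0.0190 against niche), and 6 of 9 pericyte genes were lower than in far spots. With antibody replicate 2 left out, Rgs5 against the niche had an adjusted p of 0.0600, and with ICI-alone replicate 1 left out 0.0901. The 4 erythrocyte genes tested, which mark blood in the tissue, were also lower than in far spots, with 18.4%, 22.1%, 25.7% and 39.8% of the far level when summed; their part in the vascular values was not tested.

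Resident macrophage genes were lower than in far spots for 7 of 9 members. Cbr2, a carbonyl reductase known from resident macrophages, had 2.96, 6.05, 4.27 and 4.52 CPM in the ring against 38.4, 56.9, 73.5 and 51.6 CPM in far spots (-3.72 ± 0.20, adjusted p = 1.13e-06). Gas6, the ligand of receptors that macrophages use to take up dying cells, had 91.6, 62.2, 83.7 and 99.9 CPM in the ring, 47.4, 47.4, 48.5 and 47.1 CPM in the niche and 249.5, 278, 346 and 473 CPM in far spots. For Gas6 the ring differed by -1.98 ± 0.16, adjusted p = 4.53e-06 from far spots and by 0.84 ± 0.16, adjusted p = 0.00530 from the niche. Lyve1, a receptor of perivascular macrophages and lymphatic vessels, rested on 1 UMI in each of the 4 ring sums, too few to read a level. Retnla, a secreted product of alternatively activated macrophages, had 15.3, 10.4, 4.67 and 2.42 CPM in the ring against 230.4, 174, 160.4 and 29.1 CPM in far spots (-4.24 ± 0.39, adjusted p = 1.06e-05). Ring levels stood below far levels in every section for Cbr2, Gas6 and Retnla.

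Genes of recruited macrophages did not share one order. Summed over the general macrophage list, the ring held 275%, 154%, 167% and 158.5% of the far level and 61.1%, 68.2%, 61.6% and 58.0% of the niche level, between the 2 classes in every section. The lipid-handling macrophage list summed to 50.3%, 69.6%, 86.2% and 90.4% of the far level and 52.7%, 61.8%, 47.8% and 54.6% of the niche level, below both in every section. Its median gene was higher than in far spots all the same (log2 difference 0.65), so the sum does not describe the single genes. Lpl, a member, is also in the fatty acid oxidation list. The part of other cell types in the sum was not tested. The niche was cut on 2 macrophage genes, so a lower level in the ring is built into the rule for genes that go with them, and the following differences from the niche are descriptions. Of 15 general macrophage genes, 10 were higher than in far spots and 9 lower than in the niche, and of 14 lipid-handling macrophage genes 6 were higher and 3 lower than in far spots and 9 lower than in the niche. Spp1, which encodes osteopontin, had 311, 222, 808 and 1071 CPM in the ring, 669, 522, 2294 and 2468 CPM in the niche and 20.4, 33.0, 51.6 and 107 CPM in far spots. Spp1 gave log2 fold changes of 3.47 ± 0.24, adjusted p = 2.39e-06 against far spots and -1.27 ± 0.22, adjusted p = 0.00281 against the niche. Trem2, a lipid receptor, had 20.7, 27.7, 71.5 and 87.6 CPM in the ring, 98.8, 73.4, 177 and 199 CPM in the niche and 10.6, 17.5, 25.4 and 34.8 CPM in far spots. For Trem2 the ring differed by 1.19 ± 0.19, adjusted p = 0.000336 from far spots and by -1.49 ± 0.19, adjusted p = 0.000525 from the niche. Both genes kept niche over ring over far in each section. Lgals3 and Adam8, a galectin and a membrane protease, had fold changes of 3.42 ± 0.24, adjusted p = 2.95e-06 and 3.72 ± 0.29, adjusted p = 4.02e-06 against far spots. C1qa, a complement subunit made by most tissue macrophages, had 361, 291, 504 and 616 CPM in the ring, 213, 109, 297 and 563 CPM in the niche and 301, 484, 628 and 710.2 CPM in far spots, with neither comparison passing. C1qa gave log2 fold changes of -0.28 ± 0.24, adjusted p = 0.338 against far spots and 0.69 ± 0.24, adjusted p = 0.0729 against the niche. In some other settings C1qa passed against the niche, as with the DESeq2 Wald test (adjusted p = 0.0209). Ccr2, the receptor that brings monocytes out of blood, had 261, 194, 223 and 165 CPM in the ring, 98.8, 59.2, 93.1 and 130.4 CPM in the niche and 107, 182, 259 and 201 CPM in far spots (1.13 ± 0.27, adjusted p = 0.0156 against niche, 0.19 ± 0.26, adjusted p = 0.544 against far). Its ring level was above both classes in both antibody sections and between them in both ICI-alone sections. Against the niche, leaving out antibody replicate 2 brought the adjusted p to 0.0911, and leaving out ICI-alone replicate 1 brought it to 0.0666.

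Oxygen-sensing and glycolytic genes were in part lower in the ring than in the niche. The rule builds in a lower ring level for genes that go with Arg1 and Mmp12. Differences from the niche in this paragraph are therefore descriptions. Of 19 genes, 11 were higher and 4 lower than in far spots, while 10 were lower and 0 higher than in the niche. Hilpda, a lipid droplet protein induced by hypoxia, had 42.9, 41.5, 40.01 and 44.0 CPM in the ring, 369.6, 290.1, 213 and 177 CPM in the niche and 11.9, 9.92, 10.6 and 15.6 CPM in far spots. For Hilpda the ring differed by 1.82 ± 0.22, adjusted p = 4.95e-05 from far spots and by -2.59 ± 0.22, adjusted p = 9.78e-05 from the niche. Its ring level was nearly constant between sections whereas its niche level was higher in both antibody sections. Slc2a1, the glucose transporter GLUT1, had 507, 576, 404 and 355 CPM in the ring, 1046, 1325, 736 and 638 CPM in the niche and 34.1, 62.6, 71.9 and 78.5 CPM in far spots (2.87 ± 0.29, adjusted p = 1.90e-05 against far, -1.01 ± 0.27, adjusted p = 0.0268 against niche; 0.127 and 0.114 against niche without antibody replicate 2 and ICI-alone replicate 1). Mmp13, a collagenase, was steeper still, with 20.2, 14.7, 22.95 and 15.2 CPM in the ring, 139, 141, 153 and 77.3 CPM in the niche and 5.21, 5.04, 3.12 and 2.46 CPM in far spots (-2.68 ± 0.19, adjusted p = 6.33e-05 against niche). In CPM, the ring of all 4 sections was nearer to far spots than to the niche for Hilpda and Mmp13. As a fold this held in all 4 for Hilpda and in both antibody sections for Mmp13, whose ring was nearer to the niche in both ICI-alone sections.

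Lymphocyte and interferon genes were high in the ring, and few of them passed against the niche. All 15 T cell genes were higher than in far spots, and 0 were higher and 1 lower than in the niche. Summed over the list, ring levels were 584%, 287%, 235% and 198% of the far level and 120.4%, 136%, 102% and 87.1% of the niche level, above the niche in 3 sections and below it in ICI-alone replicate 2. Cd3e, a chain of the T cell receptor complex, had 64.0, 57.0, 31.5 and 21.5 CPM in the ring, 50.3, 39.1, 20.2 and 15.8 CPM in the niche and 12.9, 20.03, 14.3 and 11.5 CPM in far spots. Cd3e gave log2 fold changes of 1.42 ± 0.23, adjusted p = 0.000364 against far spots and 0.47 ± 0.24, adjusted p = 0.204 against the niche. Its ring level was the highest of the 3 classes in every section, but the comparison with the niche passed only when antibody replicate 1 was left out (adjusted p = 0.0197) or with limma on mean log values per spot. Gzmb, granzyme B of cytotoxic cells, had 123, 96.8, 86.7 and 44.8 CPM in the ring, 113, 95.9, 86.0 and 44.5 CPM in the niche and 7.96, 13.7, 15.9 and 9.82 CPM in far spots (2.80 ± 0.25, adjusted p = 9.00e-06 against far). Ifng, interferon gamma, had 78.3, 83.0, 34.1 and 11.97 CPM in the ring, 80.3, 143, 23.8 and 20.1 CPM in the niche and 3.23, 9.88, 2.87 and 1.68 CPM in far spots (3.54 ± 0.29, adjusted p = 4.96e-06 against far).

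Chemokines and surface proteins that interferon gamma is known to induce were high in the ring. Of 21 genes of the interferon gamma response, 16 were higher than in far spots and 2 higher than in the niche. Cxcl9 had 62.6, 93.3, 18.3 and 17.5 CPM in the ring, 37.1, 47.4, 13.2 and 12.9 CPM in the niche and 4.84, 17.9, 4.28 and 3.40 CPM in far spots. For Cxcl9 the ring differed by 2.60 ± 0.24, adjusted p = 1.13e-05 from far spots and by 0.63 ± 0.24, adjusted p = 0.0978 from the niche. Cxcl10 had 584, 711, 394 and 369 CPM in the ring, 338, 470.0, 213 and 316 CPM in the niche and 73.3, 228, 87.1 and 107 CPM in far spots. Cxcl10 gave log2 fold changes of 2.14 ± 0.21, adjusted p = 1.43e-05 against far spots and 0.63 ± 0.20, adjusted p = 0.0514 against the niche. Both chemokines were higher in the ring than in the other 2 classes in every section without passing against the niche in the main fit. Without antibody replicate 1 they passed (adjusted p of 0.0155 for Cxcl9 and 0.0149 for Cxcl10). With all sections kept, both also passed in some settings and not in others. Among these were the DESeq2 Wald test (0.0448 and 0.013) and far spots at 2 or more steps (0.0417 and 0.0155). Cd274, which encodes the checkpoint ligand PD-L1, ran the other way, with 673, 691, 412 and 368 CPM in the ring, 973, 1030.0, 643 and 601 CPM in the niche and 229.9, 401, 118 and 77.5 CPM in far spots. For Cd274 the ring differed by 1.56 ± 0.22, adjusted p = 0.000177 from far spots and by -0.62 ± 0.22, adjusted p = 0.0741 from the niche. All 12 checkpoint genes tested, all 10 genes of MHC class II presentation and 10 of 12 of MHC class I presentation were higher than in far spots.

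Dendritic cell genes were higher than in far spots for 11 of 14 members, and lower for 1. Ccl17, a dendritic cell chemokine for CCR4-bearing T cells, had 459, 319.8, 61.9 and 26.1 CPM in the ring, 508, 787, 69.1 and 28.9 CPM in the niche and 11.4, 9.53, 2.74 and 2.88 CPM in far spots (4.55 ± 0.43, adjusted p = 1.15e-05 against far). It stood among the 10 largest rises over far spots, with Cxcl3 (5.25 ± 0.46, adjusted p = 7.52e-06), a neutrophil chemokine, Il1a (5.08 ± 0.34, adjusted p = 2.29e-06), an alarm cytokine, Nos2 (4.30 ± 0.37, adjusted p = 6.49e-06), the inducible nitric oxide synthase, and Ccl24 (4.87 ± 0.20, adjusted p = 4.86e-07), an eosinophil chemokine. Ccl24 had 51.7, 54.4, 11.98 and 11.2 CPM in the ring and 263, 228, 81.4 and 41.1 CPM in the niche. A lower ring level than in the niche is built into the rule for genes that go with Arg1 and Mmp12, so the next values are descriptions. Against the niche, Ccl24 (-2.26 ± 0.16, adjusted p = 6.33e-05), Il1a (-1.36 ± 0.29, adjusted p = 0.00865) and Cxcl3 (-1.26 ± 0.39, adjusted p = 0.0455) were lower in the ring. Without antibody replicate 2, Il1a gave 0.0741 and Cxcl3 0.108, and Cxcl3 gave 0.205 without ICI-alone replicate 1.

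**Figure D2:**
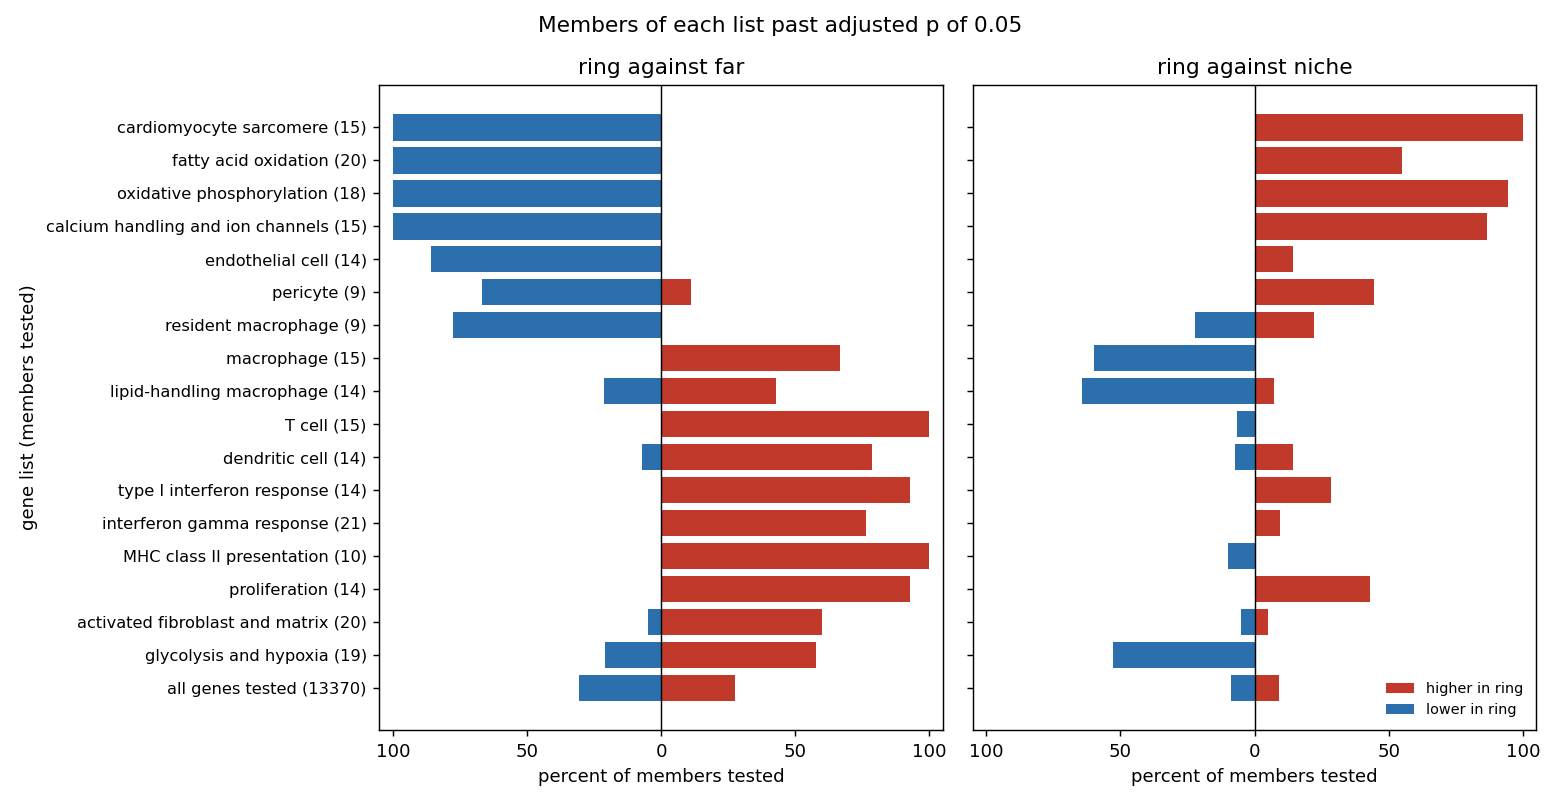
Share of each list's tested members (number in brackets) that passed an adjusted p of 0.05 in the ring against far spots (left panel) and against the niche (right panel), with higher genes drawn to the right in red and lower genes to the left in blue. Sarcomere genes were lower than far for 15 of 15 and higher than niche for 15 of 15, and T cell genes were higher than far for 15 of 15, beside 27.7% and 30.6% of all genes against far spots.

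A smaller set of genes was higher in the ring than in both the niche and the far spots; spots at 2 and 3 steps are in neither class and are described further on. Above both the niche and far spots in both tests were 95 genes (0.711% of those tested), and below both were 69 (0.516%). Ignoring the tests, 563 genes (4.21%) lay above both classes in all 4 sections, 489 (3.66%) lay below both, and 3570 (26.7%) lay between them. These counts depend on which sections are in the fit. Leaving out antibody replicate 1 gave 248 above and 80 below both, and leaving out antibody replicate 2 gave 31 and 35. Leaving out ICI-alone replicate 1 gave 8 and 13, and leaving out ICI-alone replicate 2 gave 35 and 34. In each of these fits all 95 genes kept a ring level above both classes, and 80, 28, 7 and 30 of them still passed both tests. With every spot thinned to 5000 UMIs 54 genes lay above both.

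Genes of cell division were one group above both. Of 14 proliferation genes, 13 were higher than in far spots, 6 higher than in the niche and 5 above both. Top2a, the topoisomerase that untangles replicated DNA, had 55.2, 38.0, 68.4 and 60.4 CPM in the ring, 29.5, 9.47, 29.1 and 36.8 CPM in the niche and 12.9, 17.8, 29.8 and 44.7 CPM in far spots. Top2a gave log2 fold changes of 1.14 ± 0.25, adjusted p = 0.00262 against far spots and 1.02 ± 0.27, adjusted p = 0.0239 against the niche. Ccnb2, a cyclin of mitotic entry, had 17.2, 15.6, 26.4 and 28.2 CPM in the ring, 8.86, 8.29, 8.87 and 19.6 CPM in the niche and 4.17, 7.496, 9.93 and 17.1 CPM in far spots. For Ccnb2 the ring differed by 1.27 ± 0.22, adjusted p = 0.000671 from far spots and by 0.96 ± 0.25, adjusted p = 0.0212 from the niche. For both the ring was the highest class in every section. Prc1, which bundles spindle microtubules, had 17.2, 25.1, 30.5 and 38.6 CPM in the ring, 9.77, 10.7, 13.4 and 20.6 CPM in the niche and 3.66, 8.35, 10.5 and 22.2 CPM in far spots. Prc1 gave log2 fold changes of 1.45 ± 0.22, adjusted p = 0.000277 against far spots and 1.00 ± 0.25, adjusted p = 0.0178 against the niche. Kif11, a spindle motor, and Ckap2l, a spindle protein, had 0.88 ± 0.20, adjusted p = 0.0136 and 0.98 ± 0.23, adjusted p = 0.0134 against the niche, and 1.20 ± 0.18, adjusted p = 0.000270 and 1.27 ± 0.21, adjusted p = 0.000400 against far spots. Without ICI-alone replicate 1 the comparison with the niche gave adjusted p of 0.136 for Top2a, 0.171 for Ccnb2, 0.128 for Prc1, 0.152 for Kif11 and 0.122 for Ckap2l. Without antibody replicate 2 it gave 0.0946 for Top2a, 0.0749 for Ccnb2, 0.0825 for Prc1 and 0.0546 for Ckap2l.

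The promoters of Top2a, Ccnb2, Kif11 and Ckap2l are shown because these mitotic genes were high in the same class of spots. Genes of mitotic entry are known to carry CCAAT boxes, bound by the factor NF-Y, and a CHR element with the letters TTTGAA, through which the DREAM complex represses them in resting cells. The 250 bases before the start site were read from RefSeq on GRCm38.p6, 5′ to 3′ on the gene's strand, and matches on either strand to CCAAT or TTTGAA are in capitals. The matches shown do not overlap.
Top2a, chr11:99024190-99024439, minus strand: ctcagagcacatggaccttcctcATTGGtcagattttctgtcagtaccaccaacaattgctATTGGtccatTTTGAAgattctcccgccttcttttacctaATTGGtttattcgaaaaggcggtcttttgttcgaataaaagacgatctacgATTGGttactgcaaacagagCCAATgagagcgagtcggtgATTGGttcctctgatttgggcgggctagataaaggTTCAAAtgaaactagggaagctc
Ccnb2, chr9:70421555-70421804, minus strand: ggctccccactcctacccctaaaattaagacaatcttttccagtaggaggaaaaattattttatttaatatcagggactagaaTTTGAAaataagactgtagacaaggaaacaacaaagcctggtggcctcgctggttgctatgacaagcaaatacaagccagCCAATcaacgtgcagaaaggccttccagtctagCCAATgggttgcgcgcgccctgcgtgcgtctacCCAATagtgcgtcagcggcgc
Kif11, chr19:37376132-37376381, plus strand: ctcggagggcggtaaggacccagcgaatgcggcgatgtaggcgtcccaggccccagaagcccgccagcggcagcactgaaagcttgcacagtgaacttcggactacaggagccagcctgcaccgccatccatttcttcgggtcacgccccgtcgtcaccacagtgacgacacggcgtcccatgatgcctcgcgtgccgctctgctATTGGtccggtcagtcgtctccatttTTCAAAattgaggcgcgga
Ckap2l, chr2:129297213-129297462, minus strand: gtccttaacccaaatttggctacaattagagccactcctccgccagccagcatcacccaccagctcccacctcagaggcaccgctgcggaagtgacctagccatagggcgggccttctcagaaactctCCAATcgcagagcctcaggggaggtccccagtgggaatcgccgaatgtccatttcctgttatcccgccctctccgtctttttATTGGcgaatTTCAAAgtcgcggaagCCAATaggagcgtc
The window of Top2a holds 6 matches to CCAAT and 2 to TTTGAA, that of Ccnb2 3 and 1, that of Kif11 1 and 1, and that of Ckap2l 3 and 1. Of 13 cell cycle genes above both that were searched, picked by known role after their values were seen, 10 had a window, 8 of these held CCAAT and 6 held TTTGAA. Among all 32851 windows of the table, 33.8% hold CCAAT and 16.0% hold TTTGAA. Every window printed holds both motifs, whereas the window of Mad2l1 held neither and those of Aspm, Aurka and Cdc25b held no TTTGAA. The window of Iqgap3 held no CCAAT, and a window of Prc1 held no TTTGAA. A gene with several windows counted if any matched, while the shares of all windows count windows. A match describes letters only and says nothing of binding in these hearts.

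Histone genes, many of which are transcribed in S phase, were also among the 95. Of 35 histone genes tested, 12 were above both, 18 were higher and 4 lower than in far spots, and 12 were higher and 4 lower than in the niche. This set was noticed after the values were seen. Its members are near-identical copies whose counts may not be fully told apart, so a single gene's level is uncertain. Hist1h3d, a histone H3 gene, had 107, 76.9, 171 and 182 CPM in the ring, 49.2, 30.8, 69.2 and 102 CPM in the niche and 37.7, 44.6, 86.3 and 120.4 CPM in far spots. For Hist1h3d the ring differed by 0.95 ± 0.15, adjusted p = 0.000277 from far spots and by 1.11 ± 0.15, adjusted p = 0.000897 from the niche. Hist1h2bb, a histone H2B gene, had 282, 251, 387 and 407 CPM in the ring, 158, 123, 162 and 245 CPM in the niche and 104.8, 158, 211 and 291 CPM in far spots. Hist1h2bb gave log2 fold changes of 0.85 ± 0.16, adjusted p = 0.00117 against far spots and 0.95 ± 0.17, adjusted p = 0.00316 against the niche. Hist1h1a, a linker histone, followed with 1.30 ± 0.21, adjusted p = 0.000329 against far spots and 0.82 ± 0.21, adjusted p = 0.0223 against the niche, and the comparison with the niche did not pass without antibody replicate 2 (0.104) or ICI-alone replicate 1 (0.144). Ring levels of Hist1h3d and Hist1h2bb exceeded both classes in all 4 sections.

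Genes of the type I interferon response were another group above both. Of 14 tested, 13 were higher than in far spots, 4 were higher than in the niche, and these 4 were above both. Ifit2, which binds viral RNA, had 114, 111, 53.4 and 37.9 CPM in the ring, 48.7, 60.4, 34.98 and 26.5 CPM in the niche and 33.9, 52.8, 34.2 and 20.7 CPM in far spots. For Ifit2 the ring differed by 1.08 ± 0.15, adjusted p = 0.000160 from far spots and by 0.81 ± 0.16, adjusted p = 0.00620 from the niche. Its ring level was the highest in every section, and both calls held without any 1 section. Irgm1, an interferon-induced GTPase that like Ifit3 was picked after its values were seen, had 1085, 1038, 981 and 689 CPM in the ring, 620.4, 722, 628 and 469.7 CPM in the niche and 709, 1031, 745 and 328 CPM in far spots. Irgm1 gave log2 fold changes of 0.51 ± 0.17, adjusted p = 0.0238 against far spots and 0.63 ± 0.17, adjusted p = 0.0259 against the niche. Ifit3 had 85.2, 70.9, 26.6 and 19.0 CPM in the ring, 24.1, 28.4, 14.3 and 9.57 CPM in the niche and 42.3, 76.8, 20.1 and 12.7 CPM in far spots (0.48 ± 0.18, adjusted p = 0.0400 against far, 1.23 ± 0.20, adjusted p = 0.00202 against niche), with far spots above the ring in antibody replicate 2. Ifit3 and Irgm1 rest on single sections: leaving out 1 section brought the adjusted p against far spots up to 0.141 for Ifit3 and 0.119 for Irgm1, and against the niche up to 0.134 for Irgm1, all without ICI-alone replicate 1.

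Promoters of interferon-induced genes are known to carry the ISRE, an element bound by STAT and IRF factors. It was searched on both strands as GAAA, any 2 bases and GAAA again, with matches in capitals in the same 250-base windows.
Ifit3, chr19:34583279-34583528, plus strand: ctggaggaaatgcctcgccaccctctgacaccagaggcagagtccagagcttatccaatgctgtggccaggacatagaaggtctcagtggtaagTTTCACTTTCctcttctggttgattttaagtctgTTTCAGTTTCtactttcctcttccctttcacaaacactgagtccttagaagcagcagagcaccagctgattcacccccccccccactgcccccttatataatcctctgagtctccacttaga
Irgm1, chr11:48871421-48871670, minus strand: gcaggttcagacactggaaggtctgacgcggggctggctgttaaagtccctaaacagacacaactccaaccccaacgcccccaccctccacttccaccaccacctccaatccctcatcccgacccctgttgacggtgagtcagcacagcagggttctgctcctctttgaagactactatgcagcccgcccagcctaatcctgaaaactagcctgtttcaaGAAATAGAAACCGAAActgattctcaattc
Each of these windows holds 2 matches; in Irgm1 they overlap by 4 bases. Of 7 interferon genes above both, picked by role after their values were seen, 6 had a window and 4 held a match, against 3.0% of all windows. Neither of the 2 windows listed for Ifit2 held one.

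Single genes of leukocyte traffic and of dendritic cells were also above both. Of 14 dendritic cell genes tested 1 was above both, with 2 higher and 1 lower than in the niche. Of 14 cytotoxic lymphocyte genes tested 1 was above both, with 1 higher and 0 lower than in the niche. Ccl17 of the dendritic cell list lay below the niche in every section. Of 13 endothelial activation genes, the list of Vcam1, 4 were higher and 4 lower than in far spots, with a median log2 difference of -0.42, and 3 were higher than in the niche. Vcam1, the endothelial and stromal adhesion molecule for leukocytes, had 260.1, 261, 182 and 201 CPM in the ring, 136, 168, 94.7 and 126 CPM in the niche and 71.8, 138, 101 and 135 CPM in far spots. All 4 ring values exceeded all niche and far values (1.03 ± 0.18, adjusted p = 0.000640 against far, 0.81 ± 0.18, adjusted p = 0.0123 against niche; 0.0598 and 0.0714 against niche without antibody replicate 2 and ICI-alone replicate 1). Xcl1, a chemokine of CD8 T and natural killer cells for cross-presenting dendritic cells, had 20.7, 36.3, 7.72 and 8.09 CPM in the ring, 13.2, 22.5, 5.27 and 2.57 CPM in the niche and 8.33, 17.1, 7.35 and 3.51 CPM in far spots. For Xcl1 the ring differed by 0.93 ± 0.24, adjusted p = 0.00678 from far spots and by 0.90 ± 0.27, adjusted p = 0.0400 from the niche. Its receptor Xcr1, picked after its values were seen, was above both as well, on 19, 8, 28 and 24 ring UMIs. Xcr1 gave log2 fold changes of 0.82 ± 0.29, adjusted p = 0.0320 against far spots and 1.08 ± 0.34, adjusted p = 0.0492 against the niche. Dnase1l3, a secreted nuclease of dendritic cells and macrophages, had 56.7, 39.8, 17.5 and 10.6 CPM in the ring, 16.5, 21.3, 8.10 and 6.61 CPM in the niche and 15.4, 19.9, 15.7 and 8.07 CPM in far spots. For Dnase1l3 the ring differed by 0.85 ± 0.25, adjusted p = 0.0125 from far spots and by 1.18 ± 0.28, adjusted p = 0.0142 from the niche. Xcr1 lost the call against the niche or far spots in every fit that left out 1 section (highest adjusted p 0.256, against the niche without ICI-alone replicate 1). Without a section the comparison of Xcl1 with the niche reached adjusted p of 0.216 (ICI-alone replicate 2), 0.114 (antibody replicate 2) and 0.0576 (ICI-alone replicate 1), and Dnase1l3 did not pass without antibody replicate 1 (0.0551 against far) or antibody replicate 2 (0.0678 against far and 0.0607 against niche). Rras2, a RAS-family GTPase, was above both with ring levels of 256, 262, 268 and 289.7 CPM against 122, 139.7, 168 and 141 CPM in the niche and 106, 103, 225 and 173 CPM in far spots. Rras2 gave log2 fold changes of 0.89 ± 0.17, adjusted p = 0.00102 against far spots and 0.94 ± 0.17, adjusted p = 0.00406 against the niche.

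Among genes lowest in the ring, F13a1, coagulation factor XIII made by resident-type macrophages and monocytes, had 38.4, 51.9, 81.0 and 119 CPM in the ring, 65.5, 86.4, 183 and 230.3 CPM in the niche and 128, 173, 215 and 238 CPM in far spots. The ring was the lowest class in all 4 sections (-1.48 ± 0.17, adjusted p = 3.42e-05 against far, -0.93 ± 0.17, adjusted p = 0.00353 against niche; 0.0584 against niche without ICI-alone replicate 1). Egln3, an oxygen-sensing prolyl hydroxylase that HIF induces, had 125, 194, 129 and 153 CPM in the ring, 384, 474, 249 and 226 CPM in the niche and 472, 385, 239 and 158 CPM in far spots (-0.94 ± 0.23, adjusted p = 0.00456 against far, -1.05 ± 0.23, adjusted p = 0.00968 against niche; 0.0778 and 0.0738 against niche without antibody replicate 2 and ICI-alone replicate 1). Vegfa and Bnip3, further HIF targets picked after their values were seen, were below both with -0.70 ± 0.19, adjusted p = 0.0270 and -0.93 ± 0.14, adjusted p = 0.00144 against the niche and -0.55 ± 0.19, adjusted p = 0.0259 and -0.55 ± 0.14, adjusted p = 0.00544 against far spots. Bnip3 kept both calls whichever section was left out, while Vegfa reached 0.0827 against far spots without antibody replicate 1 and 0.153 against the niche without antibody replicate 2. For these HIF targets the niche and the far myocardium were both above the ring. This was not shared by the whole glycolysis and hypoxia list. Of its 19 genes tested, 2 were below both, and 11 were higher and 4 lower than in far spots. Hilpda and Slc2a1 were among the higher ones.

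**Figure D3:**
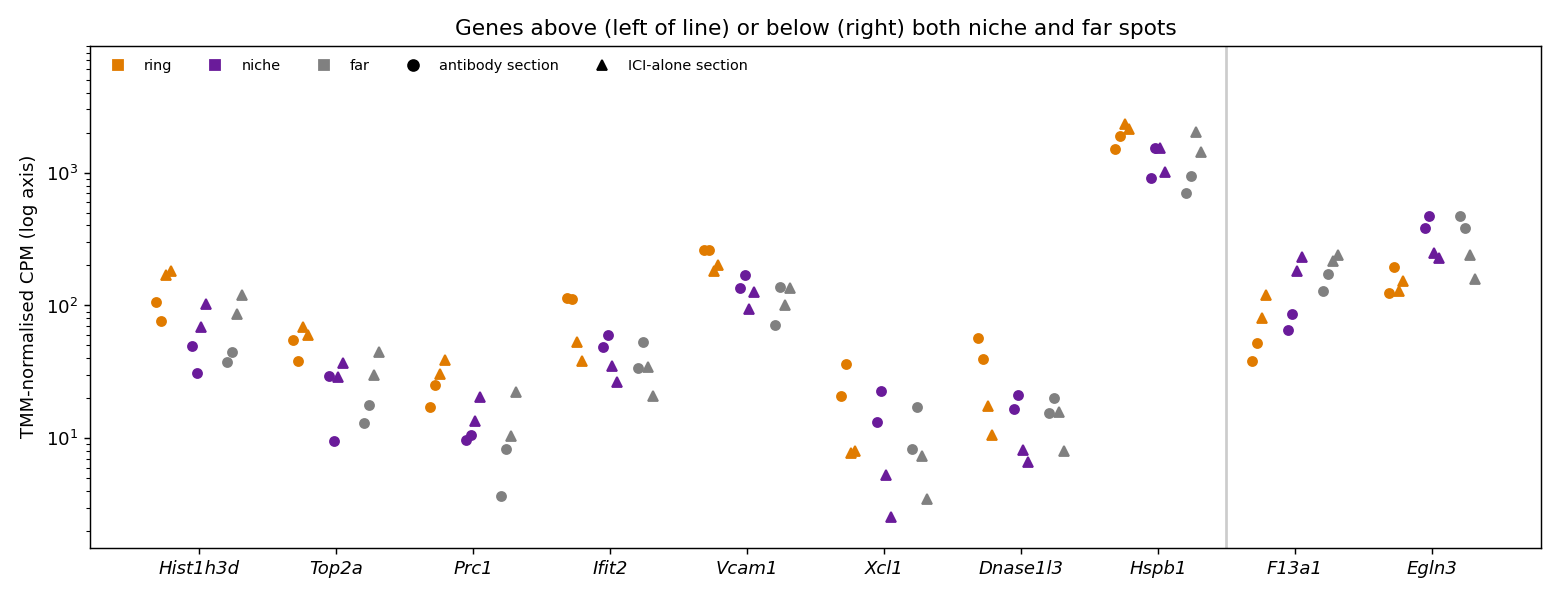
TMM-normalised CPM (log axis) of 8 genes above both classes and 2 below both, with 1 point per section, ring in orange, niche in purple and far in grey, circles for antibody and triangles for ICI-alone sections. Hist1h3d ring points lie at 107, 76.9, 171 and 182 CPM, each above the niche and far points of its own section.

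Matrix genes of activated fibroblasts were higher in the ring than in far spots for 12 of 20 members and lower for 1, with 1 higher and 1 lower than in the niche. Tnc, tenascin C of healing wounds, had 221, 140.0, 1001 and 1004 CPM in the ring, 206, 136, 536 and 648 CPM in the niche and 6.49, 24.0, 72.0 and 188 CPM in far spots. Tnc gave log2 fold changes of 3.30 ± 0.44, adjusted p = 0.000106 against far spots and 0.41 ± 0.41, adjusted p = 0.539 against the niche. Col1a1, a chain of type I collagen, had 1199, 800.3, 6973 and 11811 CPM in the ring, 1449, 623, 4532 and 8086 CPM in the niche and 238, 425, 1540.3 and 4964 CPM in far spots. For Col1a1 the ring differed by 1.61 ± 0.31, adjusted p = 0.00113 from far spots and by 0.28 ± 0.30, adjusted p = 0.570 from the niche. The ring stood above far spots for both genes in every section, and above the niche in every section for Tnc and in 3 of 4 for Col1a1. Timp1, an inhibitor of matrix proteases, had 2.78 ± 0.56, adjusted p = 0.00155 against far spots, and Cthrc1, a secreted product of activated fibroblasts, 2.26 ± 0.37, adjusted p = 0.000421. Col3a1 and Postn, a fibrillar collagen chain and periostin, did not pass against far spots (0.44 ± 0.32, adjusted p = 0.263 and 0.61 ± 0.28, adjusted p = 0.0777), though Postn did without antibody replicate 2 (0.0474) or ICI-alone replicate 2 (0.0494). With all sections kept, Postn also passed in some settings, such as library size alone (0.0303), and Col3a1 passed with limma (0.000875). Genes of resting fibroblasts were lower than in far spots for 7 of 12 members and higher for 3.

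Genes of the IL-17 response were higher in the ring than in far spots. Of 19 IL-17 response genes, 16 were higher than in far spots and 3 lower than in the niche. Il17ra, the receptor chain, had 52.7, 70.01, 69.5 and 67.7 CPM in the ring, 64.0, 78.1, 77.7 and 85.7 CPM in the niche and 11.4, 25.96, 31.7 and 35.9 CPM in far spots (1.36 ± 0.19, adjusted p = 0.000164 against far). Il17a itself rested on 23, 3, 10 and 20 ring UMIs (2.92 ± 0.53, adjusted p = 0.000795 against far). Cxcl5, a neutrophil chemokine that IL-17A induces, had 153, 137, 502 and 535 CPM in the ring, 96.8, 77.0, 320.1 and 296 CPM in the niche and 13.9, 45.1, 185 and 276 CPM in far spots. Cxcl5 gave log2 fold changes of 1.72 ± 0.35, adjusted p = 0.00174 against far spots and 0.72 ± 0.35, adjusted p = 0.187 against the niche. S100a9, a subunit of the neutrophil alarmin calprotectin, had 66.5, 72.6, 318 and 379.7 CPM in the ring, 118, 159.8, 278 and 402 CPM in the niche and 7.66, 12.9, 177 and 232 CPM in far spots (1.51 ± 0.50, adjusted p = 0.0223 against far; 0.0942 without antibody replicate 2). Cxcl5 and S100a9 stood above far spots in each section, at levels lower in both antibody sections than in both ICI-alone sections.

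The ring was not a sharp edge for every group. In CPM scaled by library size, the sarcomere list reached 19519.9, 22463, 15599 and 13882 in the ring, 36579.8, 44295, 27514 and 24099 at 2 steps and 107725, 81656, 78836 and 72565 at 9 or more steps. Proliferation genes summed to 571, 454, 712 and 742 CPM in the ring, 386, 279, 339.6 and 497 CPM in the niche, 450.0, 405, 693 and 794 CPM at 2 steps and 74.5, 167, 167 and 241 CPM at 9 or more steps. The second step thus exceeded the ring in ICI-alone replicate 2 and lay below it in the other 3 sections. Type I interferon genes summed to 1439.7, 1400.3, 1014 and 1000.5 CPM in the ring, 1546, 1356, 947 and 849.6 CPM at 2 steps and 1459, 1386, 809.5 and 722 CPM at 3 steps, with the ring exceeded at both steps in antibody replicate 1 only. Interferon gamma response genes had 16520.2, 16604, 13605 and 11461 CPM in the ring and 18740.2, 17598, 12845 and 9967 CPM at 2 steps, higher at 2 steps in both antibody sections and in the ring in both ICI-alone sections. Vcam1 likewise had 294, 292, 189 and 212 CPM in the ring and 321, 265, 183 and 215 CPM at 2 steps. Within the ring, spots with 1 niche neighbour held 24098, 28217, 17655 and 17974 CPM of sarcomere transcripts and spots with 3 or more held 14436, 15390.3, 12492 and 8876 CPM, lower in every section, whereas proliferation genes had 479.9, 448, 782 and 741 CPM and 601, 455, 648 and 744 CPM with no common direction.

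**Figure D4:**
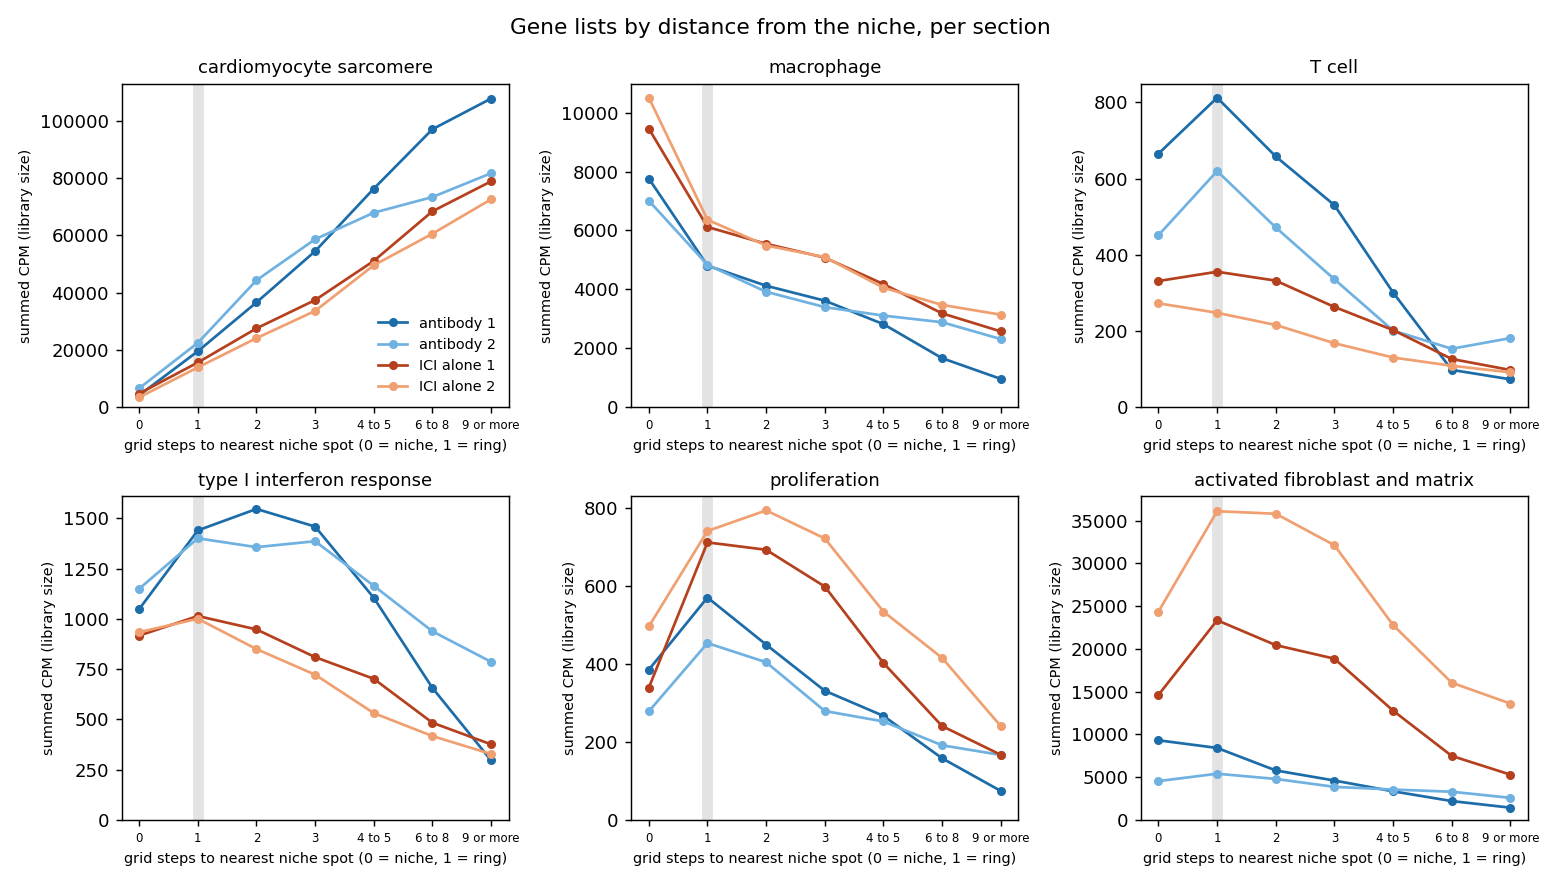
Summed CPM (scaled by library size) of 6 gene lists by grid steps to the nearest niche spot, from the niche at 0 to 9 or more, with 1 line per section and the ring shaded. Sarcomere and macrophage lists run one way with distance, while proliferation peaks at step 1 or 2 (571, 454, 712 and 742 CPM in the ring).

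The effect of neutralizing IL-17A was then asked within the ring alone, with 2 ring sums per treatment. Of 11551 genes tested, 873 (7.56%) were higher and 882 (7.64%) lower with the antibody (15.2% in all). Matrix genes were lower with the antibody for 19 of 19 activated fibroblast genes. Col1a1 in the ring had 1323 and 877 CPM with the antibody, against 7393 and 12698 CPM with ICIs alone (-3.19 ± 0.28, adjusted p = 9.37e-05). Cthrc1 had 13.6 and 8.53 CPM with the antibody, against 153 and 235 CPM with ICIs alone (-4.06 ± 0.29, adjusted p = 4.65e-05). Tnc had 243 and 153 CPM with the antibody, against 1061 and 1079 CPM with ICIs alone (-2.41 ± 0.19, adjusted p = 5.59e-05). The groups did not overlap for any of the 3 genes. This is not particular to them, since 1753 of all 1755 genes called had the same direction in both batches. These differences were not confined to the ring. Cthrc1 in far spots had 1.11 and 2.26 CPM with the antibody, against 22.1 and 76.5 CPM with ICIs alone. Col1a1 in the niche had 1449 and 623 CPM with the antibody, against 4532 and 8086 CPM with ICIs alone. Whether treatment differences in the ring exceeded those in the niche was not tested. Dio3, which inactivates thyroid hormone, and Fgf7, a growth factor of stromal cells, were among the 10 largest falls (-4.49 ± 0.38, adjusted p = 8.32e-05 and -3.98 ± 0.41, adjusted p = 0.000209), with Ereg, an epidermal growth factor receptor ligand (-3.28 ± 0.29, adjusted p = 0.000104). Dio3 rested on 9 and 2 ring UMIs with the antibody, against 309 and 907 with ICIs alone. In far spots Dio3 had 0.907 and 1.33 CPM with the antibody, against 21.6 and 64.6 CPM with ICIs alone. Antibody rings held 2.72 and 0.947 CPM of Fgf7 and 5.98 and 2.84 CPM of Ereg. At such low levels the size of a fall is uncertain.

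Neutrophil and IL-17 target genes were lower in antibody rings too. Of 17 IL-17 response genes tested, 10 were lower and 2 higher, and of 13 neutrophil genes 7 were lower. S100a9 had 73.4 and 79.6 CPM with the antibody, against 338 and 408 CPM with ICIs alone (-2.29 ± 0.15, adjusted p = 4.65e-05). Cxcl5 had 168 and 149.7 CPM with the antibody, against 532 and 575 CPM with ICIs alone (-1.79 ± 0.13, adjusted p = 5.15e-05). Macrophage genes were lower for 8 of 15 and lipid-handling macrophage genes for 9 of 14, with 1 higher. Spp1 had 343 and 243 CPM with the antibody, against 857 and 1152 CPM with ICIs alone (-1.76 ± 0.19, adjusted p = 0.000271). Trem2 and Cd68, a lysosomal protein of macrophages, had -1.73 ± 0.20, adjusted p = 0.000350 and -0.95 ± 0.13, adjusted p = 0.000913. Proliferation genes were lower for 4 of 14.

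Lymphocyte, dendritic cell and interferon genes ran the other way, being higher in antibody rings. They were higher for 11 of 15 T cell genes, 9 of 12 cytotoxic genes, 11 of 13 dendritic cell genes, 9 of 12 checkpoint genes, 11 of 21 interferon gamma response genes and 7 of 14 type I interferon genes, with 0 lower in each list. Cd3e had 70.7 and 62.5 CPM with the antibody, against 33.4 and 23.1 CPM with ICIs alone (1.28 ± 0.20, adjusted p = 0.00233; 0.0751 with spots thinned to 5000 UMIs and 0.262 with limma). Ifng had 86.4 and 90.9 CPM with the antibody, against 36.2 and 12.9 CPM with ICIs alone (1.94 ± 0.36, adjusted p = 0.00479; 0.0665 without antibody replicate 1 and 0.0839 with DESeq2). Cxcl9 had 69.0 and 102 CPM with the antibody, against 19.4 and 18.9 CPM with ICIs alone (2.13 ± 0.20, adjusted p = 0.000132). Both antibody values exceeded both ICI-alone values for these 3 genes, and nearly all genes called had the same direction in both batches. In the niche Cd3e also differed this way, with 50.3 and 39.1 CPM with the antibody, against 20.2 and 15.8 CPM with ICIs alone. Clec9a, a receptor of cross-presenting dendritic cells, Epcam and Plet1, epithelial surface proteins also known from dendritic cell subsets, and Ccl17 were among the 10 largest rises (2.89 ± 0.32, adjusted p = 0.000295, 2.94 ± 0.28, adjusted p = 0.000169, 3.10 ± 0.37, adjusted p = 0.000431 and 3.25 ± 0.32, adjusted p = 0.000173). Gzmb had 135 and 106 CPM with the antibody, against 91.9 and 48.2 CPM with ICIs alone and did not pass (0.83 ± 0.26, adjusted p = 0.0508). Gzmb did pass under 11 of 21 alternative settings, among them without ICI-alone replicate 1 (2.1e-08) and with batch as a block (8.43e-05). Msln, mesothelin of the heart's outer lining, rested on 45 and 9 ring UMIs with the antibody, against 2 and 7 with ICIs alone (4.69 ± 0.55, adjusted p = 0.000431).

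Cardiomyocyte genes were in part higher in antibody rings: 6 of 15 sarcomere genes, 6 of 18 oxidative phosphorylation genes and 5 of 19 fatty acid oxidation genes, with 0 lower. Of 14 calcium and channel genes 4 were higher and 1 lower, and of 15 border zone stress genes 0 were higher and 3 lower. Myh6 had 2921 and 3773 CPM with the antibody, against 925 and 713 CPM with ICIs alone (2.03 ± 0.18, adjusted p = 0.000104). In far spots Myh6 differed in the same direction, with 34282 and 21324 CPM with the antibody, against 14279.9 and 9652 CPM with ICIs alone. Tnnt2 had 3759.8 and 4527 CPM with the antibody, against 5266 and 4841 CPM with ICIs alone and did not pass (-0.29 ± 0.16, adjusted p = 0.262). Nppa had 1384 and 1408 CPM with the antibody, against 5089.7 and 5066 CPM with ICIs alone (-1.86 ± 0.15, adjusted p = 5.81e-05), and no ring held atrial-rich spots by the rule without Nppa. Among genes above both, Ifit2, Xcl1 and Vcam1 were higher with the antibody (1.37 ± 0.17, adjusted p = 0.000513, 1.81 ± 0.29, adjusted p = 0.00268 and 0.48 ± 0.12, adjusted p = 0.0244). Vcam1 passed in just 1 of the 4 fits that left out a section, with adjusted p of 0.0839, 0.0740 and 0.178 in the others. With spots thinned to 5000 UMIs Vcam1 gave an adjusted p of 0.364, and with limma Vcam1 gave 0.790 and Xcl1 0.0953. The level of Top2a did not pass (-0.37 ± 0.17, adjusted p = 0.178). Ring spots had more UMIs with ICIs alone within each batch. With every spot thinned to 5000 UMIs, 7773 genes could be tested and 820 passed (401 higher and 419 lower), and the part of depth in these differences was not tested.

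**Figure D5:**
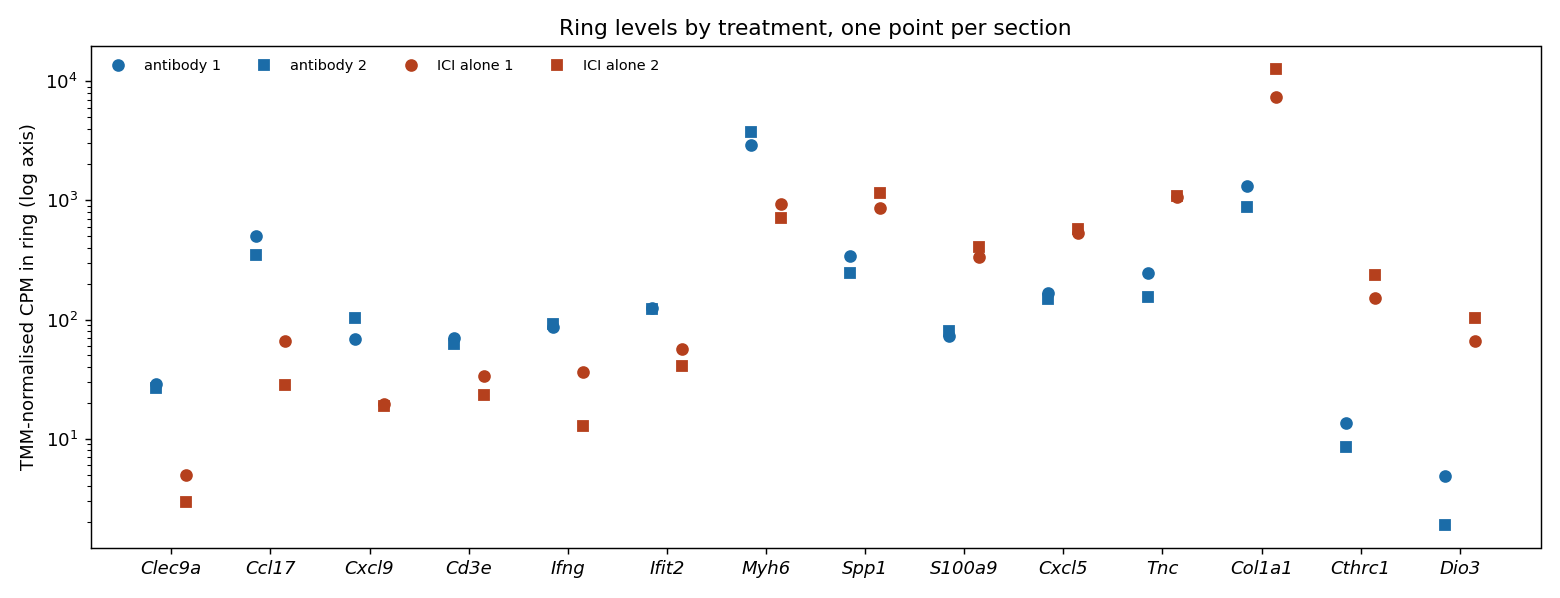
TMM-normalised CPM in the ring (log axis) for 14 genes, with 1 point per section, antibody in blue and ICI alone in red, circles for replicate 1 and squares for replicate 2. Antibody points lie above ICI-alone points for the genes from Clec9a to Myh6 and below them for those from Spp1 to Dio3.

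Whether the step from far spots to the ring itself differed between treatments was tested as an interaction, which 33 genes (0.247%) passed in the positive and 18 (0.135%) in the negative direction (0.381% in all). The count was 1 without ICI-alone replicate 2, 2163 without antibody replicate 2, 12 with antibody replicate 1 left out and 6 with ICI-alone replicate 1 left out. With batch as a block it was 285. The ring-to-far difference of Star, a cholesterol carrier of steroid synthesis, was larger with the antibody, with 82.3 and 103 CPM in the ring and 2.15 and 2.89 CPM in far spots, against 74.5 and 57.0 CPM in the ring and 22.6 and 14.2 CPM in far spots with ICIs alone (3.35 ± 0.18, adjusted p = 0.000159). Star held this call without any 1 section, but not with limma on mean log values per spot (adjusted p = 0.282). Thbs2, thrombospondin 2, a matrix protein, had 6.90 and 3.46 CPM in the ring and 53.1 and 25.6 CPM in far spots with the antibody, against 29.9 and 71.6 CPM and 22.96 and 51.8 CPM with ICIs alone (-3.35 ± 0.23, adjusted p = 0.000545; 0.0755 without ICI-alone replicate 2). For Thbs2 the ring lay below far spots in both antibody sections and above them in both ICI-alone sections.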

How the data were processed

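Spatial transcriptomes of 4 heart sections were analysed from deposited UMI counts per gene and spot, made by the authors with Space Ranger 2.1.0 per the file headers. The submitters' processing notes name the genome mm10, the assembly GRCm38, and Seurat 5.1.0 with no role given. The labels describe 5 µm fixed, paraffin-embedded sections. Deposited positions gave the grid neighbours. The 4 libraries share 1670 cell barcodes, which are array positions and not cells.

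Spots were classed by the 5000 UMI and 0.4% rules, counts were summed per section and class, and genes were tested with edgeR 4.0.16 (TMM, quasi-likelihood F test, Benjamini-Hochberg over all genes, threshold 0.05) with the section as a block. Arg1 and Mmp12 were left out of the tests. The treatment test used the 4 ring sums without batch as a block. The labels number the sections by batch, with both treatments under each number, but do not say what a batch number shares. Whether sections of a batch are paired is therefore not known, and the blocked fit is printed where it changed a call. Deviations of same-batch ring sums correlated at -0.06 over 11551 genes. Doublets were not called, since a spot can hold several cells. The code was tested on simulated counts. The members and all gene lists were chosen with earlier results of these data known. Named genes were a fixed panel, the 10 largest rises and falls per comparison among genes past the threshold with 10 CPM or more in 1 class and the same direction in every section, the leading genes above both, below both and of the interaction, and up to 4 leading members per list; others are marked in the text as picked after their values were seen. Alternatives included DESeq2 1.42.0 and limma 3.58.1 on log2(CPM + 1) averaged over spots. R was 4.3.3.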

Additional observations from a re-analysis of the deposited data

Results flagged for a closer look

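Of 13370 genes tested, 51 (0.381%) passed the interaction test, in which the difference between ring and far spots itself differed between treatments. The 13 of them listed here had the smallest p or were named for another reason, and are not the full set. All values are the antibody group's log2 ring-to-far difference minus that of the ICI-alone group, with edgeR's adjusted p. The values were positive for Igha, an immunoglobulin heavy chain (6.05 ± 0.65, adjusted p = 0.0111), Cilp, a cartilage and matrix protein (3.67 ± 0.42, adjusted p = 0.0126), Ankrd2, a stretch-responsive muscle gene (3.60 ± 0.40, adjusted p = 0.0112), Star (3.35 ± 0.18, adjusted p = 0.000159) and Myh7, the beta myosin heavy chain (2.82 ± 0.42, adjusted p = 0.0357). They were also positive for Nr4a3, an immediate early nuclear receptor (2.56 ± 0.28, adjusted p = 0.0111), the calprotectin subunits S100a9 (2.03 ± 0.22, adjusted p = 0.0111) and S100a8 (1.92 ± 0.27, adjusted p = 0.0312), and Nos2 (1.32 ± 0.21, adjusted p = 0.0445). Negative values were those of Nrep, a regeneration-associated protein (-4.05 ± 0.33, adjusted p = 0.00205), Thbs2 (-3.35 ± 0.23, adjusted p = 0.000545), Asb5, a muscle ubiquitin ligase adaptor (-2.50 ± 0.25, adjusted p = 0.00839), and Wnt5a, a secreted signal (-2.42 ± 0.29, adjusted p = 0.0141). S100a9 had 66.5 and 72.6 CPM in antibody rings and 7.66 and 12.9 CPM in antibody far spots, against 318 and 379.7 CPM in ICI-alone rings and 177 and 232 CPM in ICI-alone far spots, so its far level differed between treatments more than its ring level. Igha rested on 75 and 47 ring UMIs with the antibody, against 2 and 244 with ICIs alone, and lost its call without ICI-alone replicate 2 (adjusted p = 0.953). Star alone among the 13 passed in each fit that left out 1 section, and it did not pass with limma (adjusted p = 0.282). The cause of these differences was not tested.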

How the results depend on the processing

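Precision is limited by 2 sections per treatment and by 60 to 323 ring spots a section. Against the niche, 816 to 3132 genes were called with 1 section left out (2383 with all). The count against far spots stayed within 1.5 times its value of 7796 in every setting, at 6138 to 7417 with 1 section left out. Thinning each spot to 5000 UMIs gave 1559 against the niche, 820 for treatment, 54 above both and 34 below both. DESeq2's Wald test gave 923 for treatment, 384 for the difference between treatments and 203 above both. With 1 section left out, treatment gave 834 to 1687 genes, the difference between treatments 1 to 2163, above both 8 to 248 and below both 13 to 80. The cause of these shifts was not tested.

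The difference between treatments (51 genes) was the least stable count. It was 9 and 351 with the niche cut at 0.2% and 0.8%, 14 with 10000 UMIs, 193 with 2 or more niche neighbours and 18 with ring spots under 0.2%. It was 187, 15 and 374 with far spots at 2 or more, 6 or more and 4 to 8 steps, 196 without edge spots and 26 without atrial-rich spots by the rule added later. It was 12 with library size alone, 293 with no filter, 28 with a filter at 10 CPM and 356 with limma. As a replicate block, batch gave 285 genes for it and 2165 for treatment (1755 without the block), and brought Gzmb past the threshold for treatment (8.43e-05). It changed no other call among those named in the text.

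Genes above both numbered 204 with far spots at 4 to 8 steps and 727 with limma. Genes below both numbered 37 with the cut at 0.8%, 24 with library size alone and 5 with limma. The ring's share with the cut at 0.8% was 4.08% and 1.61% in antibody replicates 1 and 2. With 2 or more niche neighbours it was 2.12% and 0.981% in those and 2.77% and 6.07% in ICI-alone replicates 1 and 2. Under 0.2% it was 1.56% and 1.77% in the antibody replicates and 2.45% and 5.87% in the ICI-alone ones. Another scaling moved the split of calls: library size alone gave 1394 higher and 757 lower against the niche, and 1141 higher and 742 lower for treatment, and no filter gave 658 and 1967 for treatment. Limma gave 7378 higher and 1853 lower against far spots, 2015 and 874 against the niche, and 241 and 1771 for treatment.

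Among single genes, the sign turned for Nppa against far spots at a cut of 0.2% (0.052), without edge spots (0.54), without atrial-rich spots (0.79; 0.61 with Nppa left out of that rule), without antibody replicate 2 (0.55, against -0.92 without antibody replicate 1) and with limma (2.69). It turned with limma for C1qa (0.34), Pecam1 (0.13) and Bnip3 (0.066) against far spots and for S100a8 (-1.47) and S100a9 (-0.42) in the difference between treatments. It turned with library size alone for C1qa (0.022), and with far spots at 4 to 8 steps for Ifit3 (-0.056). Calls against the niche were lost with spots thinned to 5000 UMIs for Kif11 (adjusted p = 0.116), Prc1 (0.0933), Rgs5 (0.0629) and Xcl1 (0.216), and in the difference between treatments for Nos2, Nr4a3, S100a8 and S100a9 (0.0736, 0.0720, 0.206 and 0.0721). Limma lost Irgm1, Slc2a1 and Vegfa against the niche (0.119, 0.0797 and 0.101), Vegfa against far spots (0.215) and Ankrd2 and Igha in the difference between treatments (0.614 and 0.132). Other class cuts, neighbour counts, far distances, spot exclusions, filters or scalings lost at least 1 call each of Ankrd1, Asb5, Bnip3, Ccnb2, Ccr2, Cilp, Cxcl3, Egln3, Hist1h1a, Hspb1, Ifit3, Igha, Il1a, Irgm1, Kif11, Myh7, Nos2, Pecam1, Rgs5, S100a8, S100a9, Slc2a1, Vcam1, Vegfa, Wnt5a, Xcl1 and Xcr1. Ccr2 against far spots, which did not pass, turned to -0.355 with the niche cut at 0.8%, -0.126 with 2 or more niche neighbours, -0.183 with far spots at 4 to 8 steps and -0.152 without antibody replicate 1. Some alternatives gained calls that the main fit lacked. Against the niche these concerned C1qa, Cd274, Cd3e, Cxcl5, Cxcl9 and Cxcl10. Against far spots they were Ankrd1 as lower, Postn as higher and, with limma, Ccr2 and Col3a1 as higher (adjusted p of 0.000779 and 0.000875). Nppa passed as higher than in far spots without atrial-rich spots by the planned rule (0.0416) and with limma (0.0039). For treatment they were Gzmb as higher, and Tnnt2 and Top2a as lower.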
